A study of Mus musculus with 18 samples.

Results

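The 4 tachykinin genes Tac1, Tac2, Tacr1 and Tacr3 were followed through 18 RNA-seq libraries of newborn mouse forebrain. They are 4 of the 56589 gene names in the series' expression tables, and each was found under its own name in all 4 tables. The group was selected on measured values: Tac2 was higher and Tacr3 lower in the hippocampus of Kdm2b mutants. The values of that contrast are therefore given below as a description, without a test. The remaining 3 contrasts played no part in the choice.

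All material came from postnatal day 0 mice. In the hippocampal, neurosphere and cortical sets, controls were Kdm2b fl/+ or Kdm2b fl/fl and the conditional knockouts (cKO) carried Emx1-Cre with floxed Kdm2b, which removes the exon for the CxxC zinc finger, the part of KDM2B that binds CpG-rich DNA, and leaves other exons in place. In the Rnf2 set, controls were Rnf2 fl/+ or Rnf2 fl/fl and cKO mice carried Emx1-Cre with floxed Rnf2, whose product is a catalytic subunit of Polycomb repressive complex 1. Emx1-Cre acts in the dorsal telencephalic lineage, so interneurons, vessels and other cells that migrate in from elsewhere keep the intact genes in the cKO tissue. There were 3 control and 3 cKO libraries of Kdm2b hippocampus, and 2 and 2 of each of hippocampal neurospheres (progenitors expanded in EGF and FGF2), Kdm2b cortex and Rnf2 hippocampus. The sources used here do not say whether replicates were separate animals or pools, so the p-values measure only the spread between these libraries.

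Tachykinins are neuropeptides cut from larger precursors. Tac1 encodes the precursor of substance P and neurokinin A, and Tac2 that of neurokinin B. Tacr1 encodes the NK1 receptor, which prefers substance P, and Tacr3 the NK3 receptor, which prefers neurokinin B; both are coupled to Gq and phospholipase C. In the mature forebrain the peptides are made largely by subsets of interneurons and by projection neurons of the striatum, habenula and hypothalamus.

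The peptides are related through a shared carboxy-terminal signature, and the codons of the last 10 residues of each are shown to make that kinship visible. They were read from the GENCODE transcripts (GRCm38), and the capitals mark the 5 codons of the signature.
substance P (Tac1, chr6:7556735-7556764, + strand, exon 3): cccaagcctcagcagTTCTTTGGATTAATG
neurokinin A (Tac1, chr6:7559101-7559130, + strand, exon 5 or 6): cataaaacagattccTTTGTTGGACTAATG
neurokinin B (Tac2, chr10:127729116-127729145, + strand, exon 5 or 6): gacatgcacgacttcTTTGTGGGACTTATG
The substance P stretch lies in 3 of the 4 annotated coding transcripts of Tac1 and the neurokinin A stretch in 2 of them, whereas both coding transcripts of Tac2 carry the neurokinin B stretch. The expression tables give a value per gene, so the 2 Tac1 peptides could not be told apart.

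Because the deleted zinc finger binds CpG-rich DNA, the promoters of the pair that chose the group are shown too, with each CpG in capitals. They are RefSeq sequences (GRCm38.p6) of the 250 bases before the start of each gene.
Tac2 (chr10:127724228-127724477, + strand): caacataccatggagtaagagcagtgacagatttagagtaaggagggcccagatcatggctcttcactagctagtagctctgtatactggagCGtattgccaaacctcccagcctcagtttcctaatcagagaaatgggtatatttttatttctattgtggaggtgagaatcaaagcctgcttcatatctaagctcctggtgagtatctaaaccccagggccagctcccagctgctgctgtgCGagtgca
Tacr3 (chr3:134828757-134829006, + strand): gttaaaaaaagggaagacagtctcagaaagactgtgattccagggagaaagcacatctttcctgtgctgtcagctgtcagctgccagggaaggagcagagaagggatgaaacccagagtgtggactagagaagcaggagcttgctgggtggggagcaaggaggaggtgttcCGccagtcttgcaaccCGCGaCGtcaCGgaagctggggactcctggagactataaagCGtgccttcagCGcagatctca
In RefSeq windows that also take in 50 bases from the start, Tac2 had 3 CpG and Tacr3 had 8, against a median of 7 over 32851 promoters. At least as many as in Tac2 were found in 76.7% of promoters, and at least as many as in Tacr3 in 48.65%. Tac1 was the CpG-rich member, with 22, a number reached by 23.1% of promoters, and Tacr1 had 7. For these 2 genes the RefSeq start lies 182 and 141 bases inside the gene as the expression files place it, so most of the Tac1 window is within the gene, whereas for Tac2 and Tacr3 both starts coincide. The letters TATAAA, searched on both strands, were found in the Tacr3 window but in none of the other members' windows, and in 13.6% of all promoters. The cyclic AMP response element TGACGTCA was found in no member's window and in 1.79% of all promoters. Neither motif overlaps the other in its letters.

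Expression was given as FPKM, fragments scaled to gene length and library size, which is meant to let genes be compared within a library. The 4 tables were scaled separately and no test crosses them. Levels are not comparable between tables: the housekeeping gene Gapdh was at 0.529 to 8.22 FPKM in the cortical and Rnf2 tables and at 449.6 to 999.6 FPKM in the hippocampal and neurosphere tables. What sets them apart was not tested, so the rank of a gene within a cortical or Rnf2 library may be off too. In the cortical and Rnf2 tables the read counts behind the values could be recovered (18463270 to 21884591 and 14654894 to 16334420 reads on named genes), while the depth of the hippocampal and neurosphere tables is unknown. Whole-gene Kdm2b FPKM, which does not single out the deleted exon and therefore does not check the deletion, was 28.1 to 31.9 in control and 26.2 to 28.2 in cKO hippocampus. In the Rnf2 set, whole-gene Rnf2 was at 30.8 and 32.3 FPKM in controls and at 27.8 and 28.5 FPKM in cKO, a small difference that does not by itself show the loss of the gene. As a check of the labelled tissues, with this limit, the hippocampal identity genes Zbtb20 and Prox1 were at 21.3 to 49.8 and 19.5 to 41.3 FPKM in the 10 hippocampal libraries and at 3.49 to 5.96 and 0.682 to 1.43 FPKM in cortex, the cortical neuron gene Tbr1 was at 52.9 to 63.9 FPKM in cortex (23.5 to 39.6 FPKM in hippocampus), and the progenitor gene Nes was at 89.4 to 195 FPKM in neurospheres. Neurosphere control 1 stood apart, with 29.3% of its FPKM on entries without a gene name against 0.876% to 1.95% in the other 3. The Xist transcript of females marked cKO 1 alone among the Kdm2b hippocampal libraries, all but cortical control 1 and neurosphere cKO 1 in those sets, and all 4 Rnf2 libraries.

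**Figure D1:**
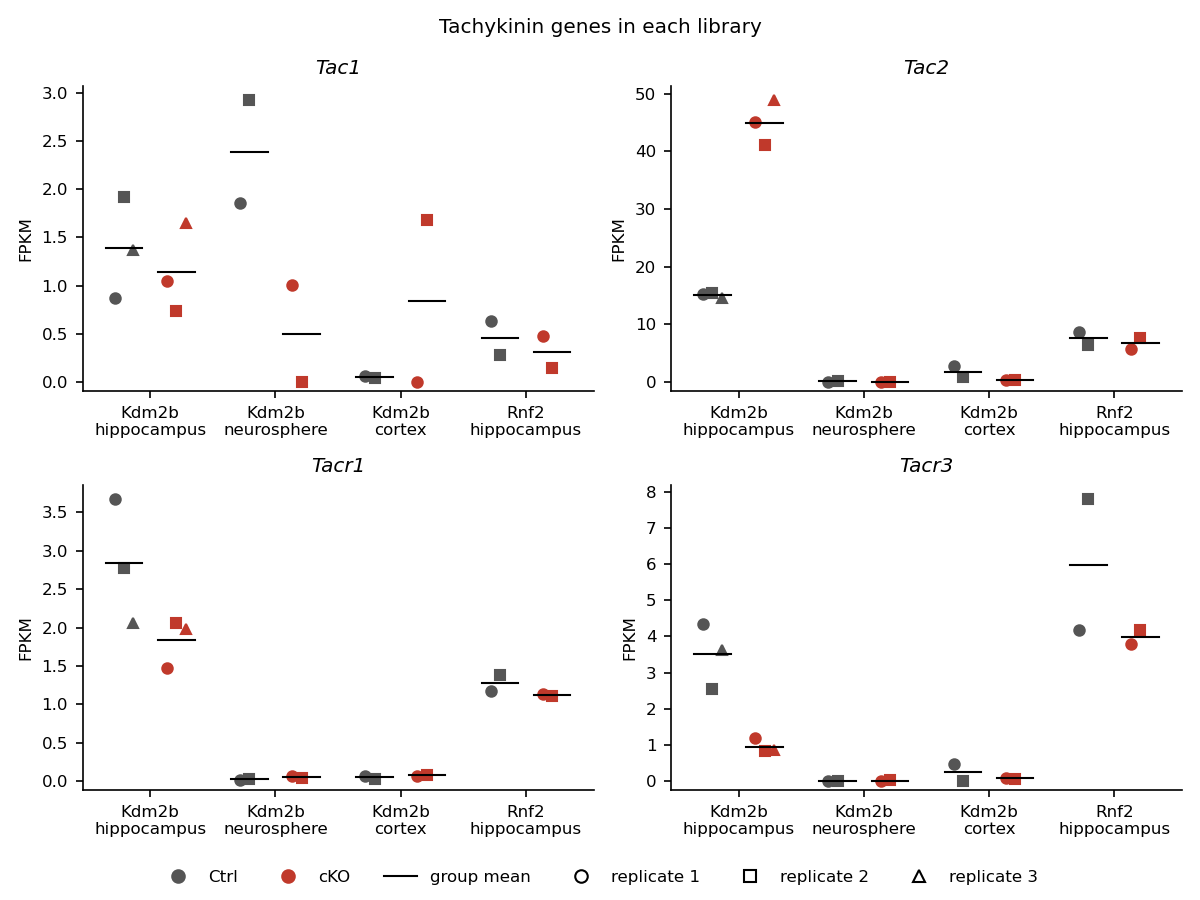
FPKM of the 4 tachykinin genes in every library (points, shaped by replicate number) by set and genotype, with group means as bars; each panel has its own linear axis. In Kdm2b hippocampus the 3 cKO points of Tac2 lie at 41.1 to 48.9 and the controls at 14.6 to 15.4, the reverse order holds for Tacr3, and in neurospheres and cortex most points lie near 0.

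In the Kdm2b hippocampus, Tac2, the neurokinin B precursor gene (ENSMUSG00000025400, chr10:127724478-127731768), was the most abundant member and the one that was higher in cKO without overlap. Its level was 15.3, 15.4 and 14.6 FPKM in the controls and 45.0, 41.1 and 48.9 FPKM in the cKO libraries. All 3 cKO libraries lay far above all 3 controls, and the means of 15.1 ± 0.449 and 45.0 ± 3.89 FPKM (SD, n = 3 each) stood in a ratio of 2.98. On the log2(FPKM + 1) scale used for every fold change here, which understates the change of low genes, the difference was 1.51.

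Tacr3, the NK3 receptor gene (ENSMUSG00000028172, chr3:134829007-134934579), differed in the opposite direction. It was at 4.35, 2.54 and 3.64 FPKM in controls and at 1.18, 0.820 and 0.866 FPKM in cKO. The groups did not overlap, and the means of 3.51 ± 0.913 and 0.957 ± 0.197 FPKM (SD, n = 3 each) stood in a ratio of 3.67, control over cKO, a log2 difference of -1.19. The peptide precursor and its preferred receptor stood further apart in the cKO libraries: the ratio of Tac2 to Tacr3 was 3.51, 6.06 and 4.01 in controls and 38.0, 50.1 and 56.4 in cKO.

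Tac1, the substance P precursor gene (ENSMUSG00000061762, chr6:7554879-7565834), was at 0.874, 1.92 and 1.37 FPKM in controls and at 1.04, 0.734 and 1.65 FPKM in cKO. Its groups overlapped, with a log2 difference of -0.15. Tacr1, the NK1 receptor gene (ENSMUSG00000030043, chr6:82402334-82560104), was at 3.67, 2.78 and 2.05 FPKM in controls and at 1.47, 2.06 and 1.98 FPKM in cKO. Here too the groups overlapped, since the lowest control lay just below the highest cKO library, and the log2 difference was -0.42.

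Of the 4 members, all of which passed the filter of a mean of 0.5 FPKM, 2 did not overlap between genotypes; among all 13446 genes tested this was so of 29.2%, and nothing is read from the count since the contrast chose the genes. Ordered by level, controls ran Tac2, Tacr3, Tacr1, Tac1, with the libraries of Tacr3 and Tacr1 overlapping. In cKO hippocampus the order was Tac2, Tacr1, Tac1, Tacr3, and only Tac2 stood clear of its neighbour. Of the other family genes, Tac4 and Tacr2 did not exceed 0.141 and 0.0624 FPKM in any of the 18 libraries.

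**Figure D2:**
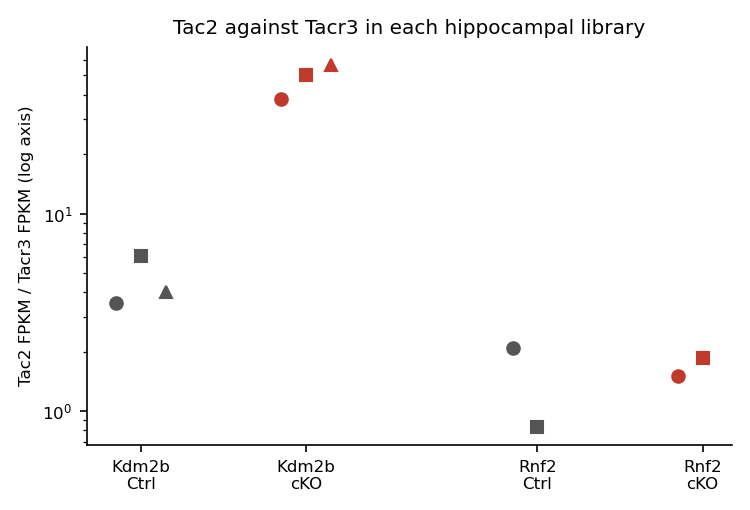
Ratio of Tac2 FPKM to Tacr3 FPKM in each hippocampal library, on a log axis, by genotype (points shaped by replicate number). The 3 Kdm2b cKO libraries lie at 38.0 to 56.4 and the 3 Kdm2b controls at 3.51 to 6.06, while the Rnf2 controls and cKO libraries overlap between 0.832 and 2.09; the sets were scaled separately.

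In bulk tissue, fewer cells of a type and less RNA per cell cannot be told apart, so markers of the cells that could carry these genes are given beside them. Calls, here and below, take a log2 fold change beyond 0.4 in either direction with p below 0.05 before adjustment, the study's thresholds. In Kdm2b hippocampus 6.14% of the 13446 genes tested were called, and 29.2% did not overlap between genotypes. Tac2 is a known product of the medial habenula, and the 7-gene habenular list summed to 4.76 to 5.22 FPKM in controls and to 4.01 to 4.53 FPKM in cKO. Most of that sum was Nwd2, at 2.52 to 3.59 FPKM, and the nicotinic subunit gene Chrna3, at 0.719 to 1.27 FPKM, the 2 tested, neither of them called. The other 5 did not exceed 0.466 FPKM, among them the transcription factor gene Pou4f1 (at most 0.0795 FPKM) and Chrnb3, at 0 in all 6 libraries. For the hypothalamus, where neurokinin B is also made, 3 of 8 genes were tested and none called. Nkx2-1, a transcription factor gene, was at 0.880 to 1.11 FPKM in controls and 1.14 to 1.82 FPKM in cKO, without overlap, while Sim1 was at 0 in all 6 libraries and Otp did not exceed 0.0634 FPKM. The list's sum of 102 to 109 FPKM rested on an entry shared by Agrp and Atp6v0d1, at 99.4 to 106 FPKM. The 7-gene thalamic list separated the genotypes, at 42.6 to 46.2 FPKM in controls and 55.5 to 59.9 FPKM in cKO, and 5 of its genes were higher in every cKO library than in every control. Of 6 thalamic genes tested 1 was called higher, Lhx9, at 12.1 to 15.1 and 19.9 to 23.0 FPKM; Gbx2, below the filter, was at 0.0580, 0.0293 and 0.0269 FPKM in controls and 0.170, 0.372 and 0.143 FPKM in cKO. Interneuron markers (12 genes, 12 tested) had no call, and their sums overlapped at 290 to 315 and 279 to 356 FPKM.

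Markers of the hippocampal cells themselves are given against the same shares of all genes, 6.14% called and 29.2% not overlapping. Of 8 genes of hippocampal excitatory neurons 3 were called lower, Slc17a7, Camk2a and Nrgn, and the list summed to 616 to 725 FPKM in controls and 457 to 536 in cKO. Nrgn, which encodes a calmodulin-binding protein of maturing neurons, was at 106 to 112 FPKM in controls and 37.4 to 59.2 FPKM in cKO. Of 8 progenitor genes 4 were called higher (Nes, Pax6, Eomes and Vim), and of 8 Cajal-Retzius cell genes 2 (Lhx1 and Ebf3), with both lists' sums overlapping between genotypes. Higher in every cKO library than in every control were 6 of the 8 progenitor genes and 5 of the 8 Cajal-Retzius genes. None of either list was lower in that way. Choroid plexus sums ran from 7.06 to 18.3 FPKM in controls and were 60.8, 42.4 and 8.51 FPKM in cKO 1 to 3, with 2 of 4 genes tested called higher, Ttr and Clic6. What part these cell types have in the levels of Tac2 and Tacr3 was not tested.

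Neurospheres were grown from progenitors of the same region, and in them Tac1 was the only member above the filter. Its level was 1.85 and 2.92 FPKM in controls and 1.00 FPKM in cKO 1, while in cKO 2 it is listed at 0. The 10 genes of a list of housekeeping genes were all above 0 in that library. They summed to 11942 FPKM, so they cannot show whether a gene as low as Tac1 was missed there. Both cKO libraries lay below both controls, and Tac1 was called lower (log2 fold change -1.24 ± 0.36 (SE), unadjusted p = 0.0144, adjusted p = 0.0583, limma). Calls were frequent in this comparison, at 24.6% of the 12227 genes tested and 13.2% in the lower direction, and 66.4% of genes did not overlap between genotypes. The fold change was -1.47 without control 1, the library that stood apart, and the call was lost without control 2 (log2 fold change -1.01, unadjusted p = 0.0876, limma).

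The other members were at the bottom of the neurosphere scale. Tac2 was listed at 0 in control 1 and both cKO libraries and was at 0.239 FPKM in control 2. Tacr1 was at 0.0187 and 0.0342 FPKM in controls and 0.0625 and 0.0353 FPKM in cKO, and Tacr3 was listed at 0 in 3 libraries and was at 0.0178 FPKM in cKO 2. The 2 genes that separated the genotypes in tissue were thus at or near 0 in the cultured progenitors of either genotype. Beside Tac1, 5 of 8 glial genes were called lower, among them Gfap, at 20.3 and 28.7 FPKM in controls and 4.37 and 5.89 FPKM in cKO, and Sox10, at 9.36 and 12.2 against 4.21 and 5.33 FPKM. The list's sum, set by the abundant Olig1 and Olig2, overlapped at 2808 to 2879 and 2801 to 2893 FPKM, and its part in the Tac1 value was not tested.

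In the Kdm2b cortex, Tac2 ran in the direction opposite to the hippocampus, although the difference between the tissues was not tested. It was at 2.73 and 0.853 FPKM in controls and at 0.333 and 0.349 FPKM in cKO, from 83, 25, 9 and 9 reads. Both cKO libraries lay below both controls, though the controls differed from each other more than the second of them did from cKO. Their 95% exact Poisson intervals, which cover counting error only, were 66.1 to 103 and 16.2 to 36.9 reads in controls and 4.12 to 17.1 reads in either cKO library, so the last bound passes into the interval of control 2.

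Tac2 was called lower in cortex (log2 fold change -0.97 ± 0.34 (SE), unadjusted p = 0.0352, adjusted p = 0.340, limma), where 7.01% of the 15691 genes tested were called, 2.28% in the lower direction, and 44.8% did not overlap between genotypes. It was the only member above the filter of 0.5 FPKM, with a mean of 1.07 FPKM over all cortical libraries. That mean was 1.79 FPKM in controls and 0.341 FPKM in cKO. Tac2 thus passed only through the controls, where it was higher, so nothing is read from its call. The call did not pass adjustment, and it was lost without control 1 (log2 fold change -0.47, unadjusted p = 0.0573, limma). Without cKO 1 it was -0.96 (unadjusted p = 0.127, limma) and without cKO 2 -0.98 (unadjusted p = 0.120, limma). Markers of cells that can make tachykinins are given beside it. The 12 interneuron genes summed to 197 and 155 FPKM in controls and to 107 and 152 FPKM in cKO, without overlap, with 1 of 12 called lower. That gene was Npy, and the other 11 summed to 113 and 95.0 FPKM in controls and to 91.2 and 121 FPKM in cKO, which overlap. Over the 12 genes the median log2 fold change was 0.009, and 10 of them overlapped between genotypes. Of 7 Cajal-Retzius cell genes tested 1 was called lower, Nhlh2, with a median log2 fold change of -0.33 over the list and 5 of its 8 genes lower in both cKO libraries than in both controls. The list summed to 29.4 and 24.2 FPKM in controls and to 24.4 and 18.2 FPKM in cKO, which overlap. The part of these cells in the Tac2 value was not tested.

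Tacr3 was highest in the same cortical library as Tac2. It was at 0.470 and 0.0125 FPKM in controls and at 0.0812 and 0.0711 FPKM in cKO, from 39, 1, 6 and 5 reads. Control 1 alone stood out, and the groups overlapped. That library was also highest for the hippocampal genes Zbtb20, at 5.96, 4.68, 3.49 and 3.69 FPKM in controls 1 and 2 and cKO 1 and 2, and Prox1, at 1.43, 0.948, 0.698 and 0.682 FPKM. These genes were chosen after their values were seen. Of the whole list of 8 hippocampal excitatory genes control 1 was highest for 3 and lowest for 2, Neurod6 and Neurod2. It had the lowest sum, 771 FPKM, against 849 FPKM in control 2 and 791 and 799 FPKM in cKO, with no gene at 0 and 1 of 8 called lower, Zbtb20. Of the 8 Cajal-Retzius cell genes control 1 was highest for 7 and lowest for none. Control 1 was also the cortical library without Xist. The part of tissue carried over at dissection, of Cajal-Retzius cells or of sex in these values was not tested.

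Tac1 in cortex came almost entirely from 1 library. It had 5 and 3 reads in controls (0.0668 and 0.0415 FPKM), 0 reads in cKO 1, where a limit of 3 reads allows up to 0.0449 FPKM and the exact Poisson interval up to 0.0553 FPKM, and 107 reads in cKO 2 (1.68 FPKM). The groups overlapped, and with a mean below the filter it was not tested. cKO 2 was also highest for genes of the striatum, a region where only a part of the projection neurons makes substance P. Drd2 was at 1.03 FPKM in cKO 2 and no higher than 0.425 FPKM in controls 1 and 2 and cKO 1. Isl1 was at 0.0917, 0.297, 0.116 and 1.67 FPKM, and Ebf1 at 0.191, 0.357, 0.277 and 1.30 FPKM in controls 1 and 2 and cKO 1 and 2. These 3 genes were chosen after their values were seen. Of the whole list of 8 striatal genes cKO 2 was highest for 7 and lowest for 0. The 8-gene striatal list summed to 25.7 to 29.0 FPKM in controls and to 35.7 and 43.6 FPKM in cKO 1 and 2, with no gene at 0 and 1 of 8 called, and its part in the Tac1 value was not tested. Tacr1 had 10 and 4 reads in controls and 9 and 10 in cKO, levels of 0.0290 to 0.0824 FPKM.

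**Figure D3:**
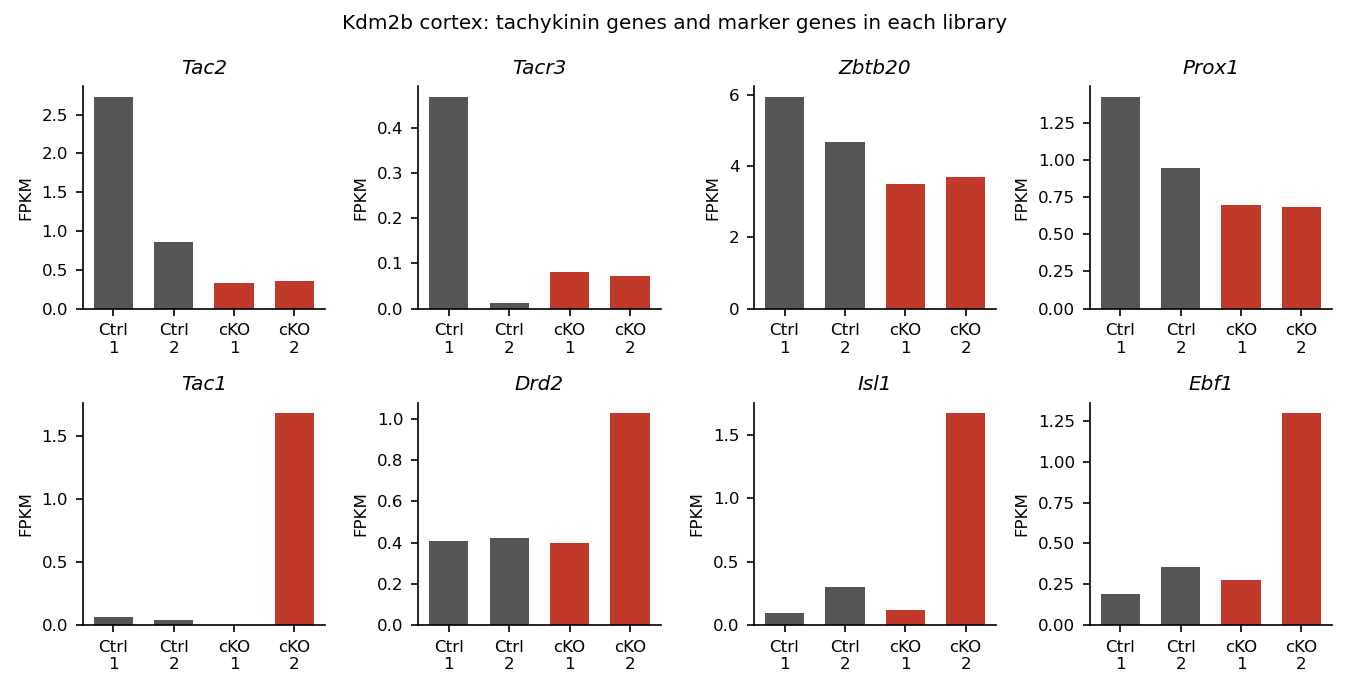
FPKM per library in Kdm2b cortex (bars from 0, grey for Ctrl, red for cKO) of Tac2 and Tacr3 beside the hippocampal genes Zbtb20 and Prox1, and of Tac1 beside the striatal genes Drd2, Isl1 and Ebf1. Control 1 is highest for the upper 4 genes, with 2.73 for Tac2, and cKO 2 for the lower 4, with 1.68 for Tac1. The marker genes drawn were chosen after their values were seen.

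In the Rnf2 hippocampus, where floxed Rnf2 was combined with the same Cre, none of the 3 members above the filter was called; 4.71% of the 15764 genes tested were. Tac2 was at 8.73 and 6.48 FPKM in controls and 5.71 and 7.71 FPKM in cKO, from 180, 139, 130 and 172 reads. The groups overlapped (log2 fold change -0.16 ± 0.20 (SE), unadjusted p = 0.453, adjusted p = 0.874, limma), and the Kdm2b difference of 1.51 was not compared with it by a test. Of 8 Cajal-Retzius cell genes 2 were called higher in this set. In both cKO libraries 5 of the 8 lay above both controls, where 38.3% of all genes did not overlap. The list summed to 152 and 165 FPKM in controls and to 177 and 182 FPKM in cKO. Its part in the Tac2 value was not tested.

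Tacr3 was at 4.17 and 7.79 FPKM in Rnf2 controls and at 3.78 and 4.17 FPKM in cKO, from 235, 456, 235 and 254 reads. Control 1 and cKO 2 were both at 4.17 FPKM, so the groups met without crossing (log2 fold change -0.44 ± 0.26 (SE), unadjusted p = 0.148, adjusted p = 0.762, limma). The value rested on control 2. Without control 2 the log2 fold change was -0.06, and without control 1 it was -0.82 (unadjusted p = 0.00640, limma), a call that its adjusted p of 0.4998 (limma) did not pass.

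The Rnf2 hippocampus held Tacr1 at 1.17 and 1.38 FPKM in controls and 1.14 and 1.11 FPKM in cKO, from 114, 139, 122 and 117 reads. Both cKO libraries lay below both controls by a narrow margin (log2 fold change -0.10 ± 0.18 (SE), unadjusted p = 0.608, adjusted p = 0.924, limma). Tac1 had 32 and 15 reads in controls and 27 and 8 in cKO, at 0.629, 0.284, 0.481 and 0.145 FPKM, below the filter and overlapping. Of the 3 members tested 2 did not overlap between groups, against 38.3% of all genes tested. In level, Tac2 and Tacr3 led in both genotypes, overlapping in controls and not in cKO, with Tacr1 and then Tac1 below them.

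The genes that make, break down or relay neuropeptides were followed in lists of 85 genes in all. In the Kdm2b hippocampus 68 were tested, 3 were called higher and 10 lower, 19.1% against 6.14% of all genes, with a median log2 fold change of -0.11 against 0.01. Of 12 peptide processing genes 2 were called lower, Pcsk2, a convertase that cuts peptide precursors (from 15.6 to 10.3 FPKM, log2 fold change -0.56, adjusted p = 0.0102, limma), and Scg2, a granin of dense-core vesicles (from 21.1 to 13.4 FPKM, log2 fold change -0.61). Of 7 peptidases Ace was called higher (0.72, from 1.22 to 2.70 FPKM), and of 17 genes of the Gq pathway 1 was higher, Plcb3, a phospholipase C (0.54), and 1 was lower.

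Among precursors of other neuropeptides no gene was called in the direction of Tac2. Of 14 tested, 3 were called lower: Cck, the cholecystokinin gene, from 186 to 67.1 FPKM (log2 fold change -1.54, adjusted p = 0.0179, limma), Gal, the galanin gene (-1.10, adjusted p = 0.0528, limma), and Penk, the proenkephalin gene (-0.66, adjusted p = 0.0452, limma). Among 18 receptors 4 were called lower, including the somatostatin receptor genes Sstr4 (-0.61) and Sstr3 (-0.58) and the neurotensin receptor gene Ntsr2 (-0.61), and 1 higher, Vipr2 (0.71), for a receptor of vasoactive intestinal peptide.

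The neurosphere lists had 37 genes tested, 2 called higher and 16 lower, 48.6% against 24.6% of all genes. Processing genes were the largest group, with 7 of 11 lower, led by Scg5, a chaperone of the convertase (log2 fold change -1.57), Chgb (-0.98), Cpe, which trims the cut peptides (-0.95, from 562 to 289 FPKM), and Pcsk1n (-0.73). Of 15 Gq pathway genes 4 were lower, led by Prkca (-0.95) and Plcb1 (-0.86), and Plcb3 was higher (0.78). Of 6 receptors 4 were lower, led by Oprl1 (-1.13) and Ntsr2 (-1.04), and of 4 peptidases Ece1, which degrades endocytosed peptides, was lower (-0.91) and Ece2 higher (0.54).

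In cortex 57 genes were tested, 3 were called higher and 4 lower, 12.3% against 7.01%, and none passed adjustment. The lower ones were the precursor genes Npy (log2 fold change -1.63, from 72.2 to 23.5 FPKM), Nts (-0.93, from 1.12 to 0.106 FPKM) and Cck (-0.88), and Pcsk2 (-0.42). Called higher were Anpep (0.71, from 0.267 to 1.10 FPKM), Plcb3 (0.58) and Ace (0.58, from 0.279 to 0.914 FPKM). Nts, Anpep and Ace passed the filter only through the group where they were higher. Nothing is read from their calls, which enter the 12.3%. Plcb3 was thus called higher and Pcsk2 lower in each of the 3 Kdm2b comparisons. Both were picked after the calls were seen, and the share of all genes that recur in this way was not computed. The libraries are separate, but the sources used here do not say whether the sets share mice. In neurospheres Pcsk2 had a log2 fold change of -0.45 (unadjusted p = 0.0433, adjusted p = 0.119, limma). Its call in cortex was close to the threshold (unadjusted p = 0.0486, adjusted p = 0.385, limma). The recurrence of these genes was not tested. In the Rnf2 hippocampus 64 were tested, 3 were called higher and 3 lower, 9.38% against 4.71%, none of them past adjustment, a threshold that none of the 15764 genes passed, although 742 were called unadjusted (limma). The granin genes Chgb (0.68) and Chga (0.45) and the gastrin-releasing peptide gene Grp (0.44) were higher, and Adcyap1 (-0.56), Npy2r (-0.56) and Npy1r (-0.51) lower.

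**Figure D4:**
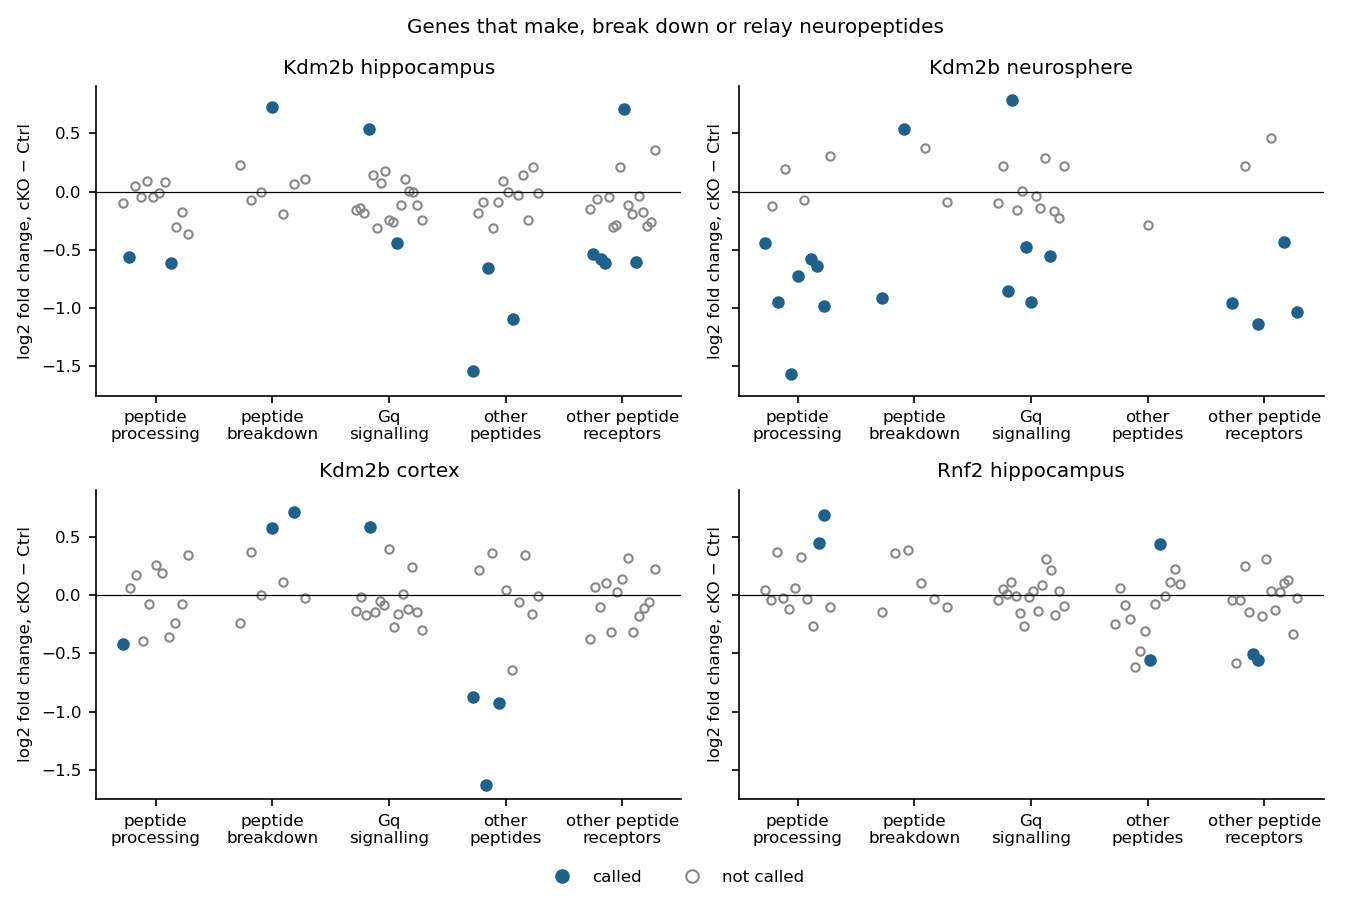
Log2 fold change (cKO minus Ctrl, on log2(FPKM + 1)) of each tested gene of the 5 neuropeptide lists, by comparison; filled points passed the call, open points did not. The called points lie mostly below 0 in Kdm2b hippocampus (10 of 13) and neurospheres (16 of 18), and on both sides in cortex and Rnf2 hippocampus.

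The genes whose pattern most resembled each member were found over the 14 tissue libraries, by Pearson's r of log2(FPKM + 1) centred within each table, among 10531 genes. This is a description, since the libraries share tables, and for Tac2 and Tacr3 the contrast that chose them enters it. The genes named were picked for their likeness over these same libraries, so highs and lows shared with a member follow from that choice. Nearest to Tac2 were Thrsp (r = 0.896), a regulator of lipid synthesis, C630043F03Rik (0.888) and Serinc2 (0.885). Thrsp was at 22.6 to 26.5 FPKM in Kdm2b hippocampal controls and 30.7 to 42.7 FPKM in cKO, and at 1.55 and 0.946 FPKM in cortical controls and 0.582 and 0.513 FPKM in cKO, so like Tac2 it was higher in the one tissue and lower in the other.

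Nearest to Tacr3 were Kcnk9 (r = 0.923), a two-pore potassium channel gene, A830082K12Rik (0.918) and 2610507I01Rik (0.883). Kcnk9 was at 4.69 to 5.59 FPKM in Kdm2b hippocampal controls and 2.55 to 3.81 FPKM in cKO, and it was highest in control 1 in cortex (1.10 FPKM) and in control 2 of the Rnf2 set (2.50 FPKM), the same libraries as Tacr3. Nearest to Tac1 were Rxrg (r = 0.909), which encodes a retinoid receptor, Vstm2a (0.840) and Acyp2 (0.833); Rxrg reached 3.66 FPKM in cortical cKO 2 against 0.133 to 0.655 FPKM in the other 3 cortical libraries. Nearest to Tacr1 were Sqle (r = 0.911), an enzyme of cholesterol synthesis, 4930447C04Rik (0.840) and Dffa (0.808).

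**Figure D5:**
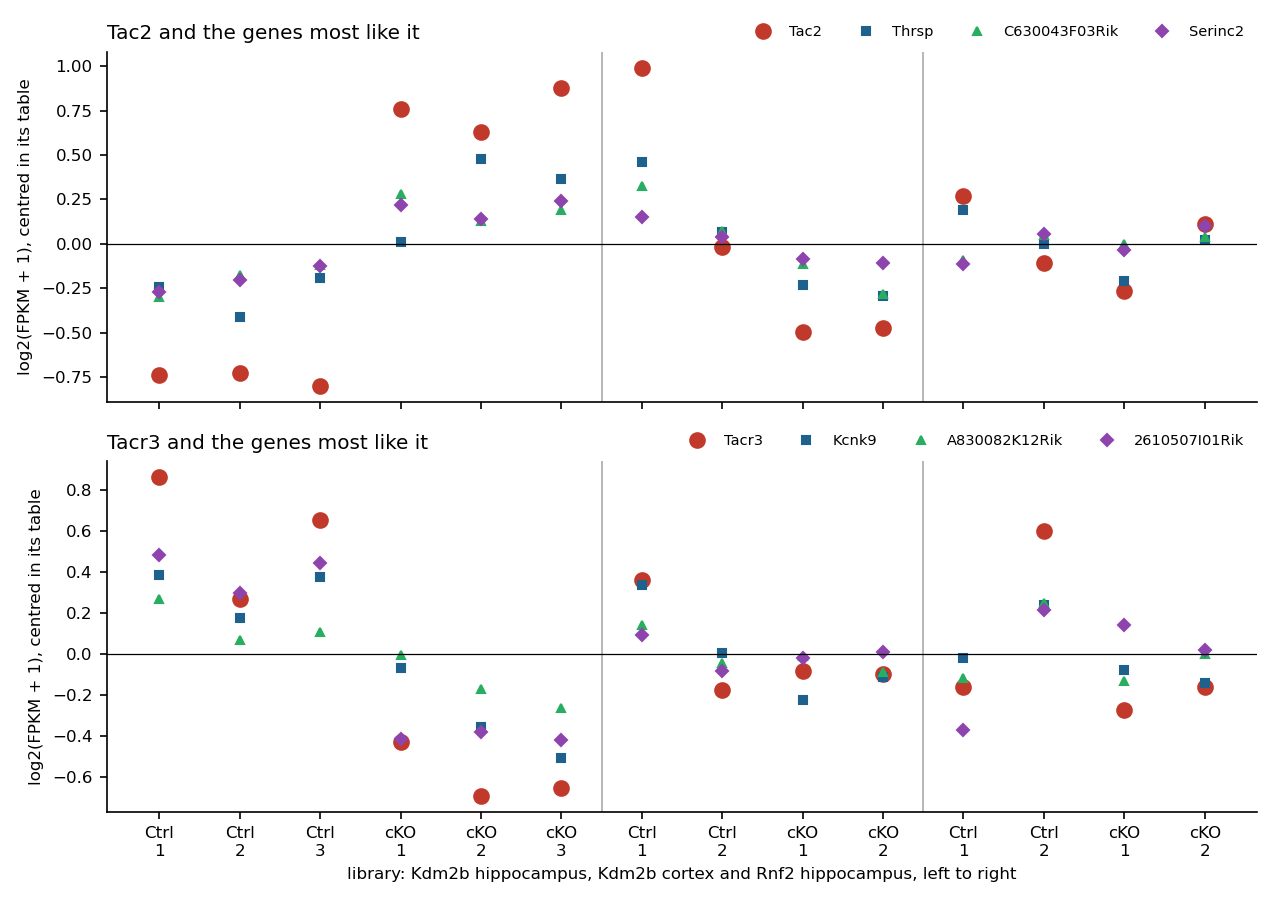
Centred log2(FPKM + 1) of Tac2 (upper) and Tacr3 (lower) with the 3 genes most like each, in the 14 tissue libraries; vertical lines part the Kdm2b hippocampal, Kdm2b cortical and Rnf2 hippocampal sets. Tac2 and its 3 neighbours lie below 0 in the 3 Kdm2b hippocampal controls and above it in cKO, and the order turns round in cortex, where control 1 is highest.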

How the data were processed

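The authors deposited 4 tables of FPKM values, 1 per set, from poly(A) RNA-seq of postnatal day 0 mice. Per the labels, reads were trimmed with cutadapt, aligned with STAR to mm10 (GRCm38) and quantified with Cufflinks 2.2.1; how the cortical and Rnf2 tables were made is not stated separately, and strand is not given in the sources used here. FPKM × gene length gave whole reads (within 0.01) for 100% of values in those 2 tables and was used for the depth behind a value. Where a name had several entries, the one with the highest mean was kept. Within each table, limma 3.58.1 (R 4.3.3, trended eBayes) compared log2(FPKM + 1) between cKO and Ctrl for genes whose mean reached 0.5 FPKM, with Benjamini-Hochberg adjustment over all of them. A call took a log2 fold change beyond 0.4 in either direction with p below 0.05 before adjustment. Members and lists were chosen with earlier results of these data known; the housekeeping list was added after values were seen. Named genes were the members, Tac4 and Tacr2, up to 4 called genes of largest change per list, the 3 genes most like each member, the targeted genes, and markers that moved with a member; some items are not reported here. Alternatives were the pseudocount, the filter, 2 scalings, an untrended fit, a replicate block, summed entries, leaving out each library, limma-voom on recovered reads and adjusted calls.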

Additional observations from a re-analysis of the deposited data

Results flagged for a closer look

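Tac2 was singled out because its difference had opposite signs in 2 tissues of Kdm2b cKO mice, with no overlap between genotypes in either. The log2 fold change was 1.51 in hippocampus, where all 3 cKO libraries lay above all 3 controls, and -0.97 in cortex, where both cKO libraries lay below both controls. The difference between the tissues was not tested, since the tables were scaled separately, and the hippocampal value was part of the choice of the gene. Cortical Tac2 rested on 9 to 83 reads per library and passed the filter only through its controls.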

How the results depend on the processing

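The members' 9 values were recomputed 125 times under the alternatives. Of 69 recomputed values in the tested comparisons 59 kept their direction and their side of the threshold. Kdm2b hippocampus has no test, and 55 of its 56 values moved by less than the spread between replicates. That count says little, because most settings could not have failed it. The filters, the untrended fit, the replicate block and the summed entries leave these fold changes as they are. Leaving out a single library cannot move a fold change by as much as that spread. Among the 55 were Tac1, which changed sign without control 2, and Tacr1, which fell below 0.4 in size without control 1 (-0.27) and cKO 1 (-0.33). In Kdm2b hippocampus, Tac2 ran from 1.45 to 1.57 over all alternatives, Tacr3 from -1.35 to -1.05 when single libraries were left out and to -1.76 with a pseudocount of 0.1, Tacr1 from -0.57 to -0.27 and Tac1 from -0.32 to 0.00098 with single libraries left out. Neurosphere Tac1 (-1.24) missed an adjusted p under 0.05 ran from -1.74 to -0.74 with single libraries left out and was -2.87 with a pseudocount of 0.1; rescaling to the same FPKM total moved the median of all genes there from -0.01 to 0.09 and gave -1.18 (adjusted p = 0.000600, limma). Cortical Tac2 (-0.97) lost its call without the filter (unadjusted p = 0.0624, limma) and under adjustment, ran from -1.48 to -0.47 with single libraries left out, and was -1.90 with a pseudocount of 0.1 and -2.11 by limma-voom on reads (unadjusted p = 0.0157). Rnf2 Tac2 changed sign, to 0.031 without control 1 and 0.030 without cKO 1, with a low of -0.35; Tacr3 ran from -0.82 to -0.058 and Tacr1 from -0.16 to -0.03 over left-out libraries. The cause of these shifts was not tested.

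Called genes of the neuropeptide lists numbered 13, 18, 7 and 6 in Kdm2b hippocampus, neurospheres, cortex and Rnf2 hippocampus. In cortex they were 12 with a pseudocount of 0.1, 4 with a filter at 1 FPKM, 14 by limma-voom and 0 under adjustment; in Rnf2 hippocampus 11 by limma-voom and 0 under adjustment, and 2 to 12 with single libraries left out. Over left-out libraries they were 12 to 16, 14 to 18 and 5 to 10 in the other 3. The replicate numbers were not shown to pair libraries: same-numbered deviations correlated at 0.05, -0.10 and -0.09 in hippocampus, -0.28 in neurospheres, -0.05 in cortex and 0.16 in the Rnf2 set. With the number as a block, no member's call changed, Tac1 in neurospheres had an unadjusted p of 0.0188, Tac2 in cortex 0.0165 and Tacr3 in the Rnf2 set 0.0619 (limma), and the lists had 13, 17, 8 and 8 calls. The cortical members rested on 0 to 107 reads each and the depth of the hippocampal and neurosphere tables is unknown.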
